A study of Mus musculus with 12 samples.

Results

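The genes described here are 10 genes of skeletal muscle, Myod1, Myog, Myf5, Actc1, Acta1, Tnnt1, Tnnt2, Myh3, Mylpf and Chrna1, in cultures labelled as mouse embryonic fibroblasts. They were listed by name and found by the RefSeq accession of each probe, which gave 12 probes for the 10 of 17304 named genes on the array. The cultures lacked Atm (Atm-KO) or had it intact (Atm-WT), the gene of a protein kinase that responds to breaks in DNA. The 4 groups of 3 samples each were irradiated Atm-KO and nonirradiated Atm-KO cells, and irradiated Atm-WT and nonirradiated Atm-WT cells, with a dose of 4.32 Gy and harvest at 72 h. Each sample was run on its own single-colour Agilent array, 12 in all. The labels give neither the way in which Atm was lost, nor the age of the embryos, nor whether the samples of a group came from separate embryos, so the p-values below reflect variation among these particular samples, part of it possibly technical.

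Skeletal muscle forms when dividing myoblasts leave the cell cycle, fuse into multinucleated fibres and assemble sarcomeres. Myod1 and Myf5 are the transcription factors that commit cells to this fate, and Myog is the factor of the same family that drives terminal differentiation. These factors bind DNA as dimers at a short site, the E-box, in front of many muscle genes. The other members are what a fibre is built of: Myh3 is the embryonic myosin heavy chain, Mylpf the fast regulatory myosin light chain, Acta1 and Actc1 the skeletal and cardiac alpha-actins, Tnnt1 and Tnnt2 the slow skeletal and cardiac forms of troponin T, and Chrna1 the alpha subunit of the acetylcholine receptor at the nerve-muscle junction. Cultures of embryonic fibroblasts are made from whole embryo tissue and can hold myogenic cells.

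Values are log2 of the deposited processed signal minus the 75th percentile of the same array, so 0 is that percentile and a difference of 1 is a doubling. The 75th percentile was 379 to 757 intensity units, with 55.3% to 64.5% of probes brighter than background by the scanner software's call (well above background). As a check of the labels, Atm stood at -5.66, -7.50 and -6.48 in irradiated Atm-KO and at -5.43, -7.01 and -6.20 without irradiation, against -2.87, -4.60 and -4.60 in irradiated Atm-WT and -3.55, -5.65 and -4.25 in nonirradiated Atm-WT cells (samples 1, 2 and 3 in each). Atm-KO cells lay lower at each number, but number 1 of both Atm-KO groups, at -5.66 and -5.43, stood next to nonirradiated Atm-WT sample 2, at -5.65. The fibroblast and myofibroblast genes Col1a1 and Acta2 were well above background on 12 of 12 arrays, with levels of 7.48 to 8.40 and 7.90 to 8.91. Samples with the same number were on the same slide as their irradiated or nonirradiated partner: slide 1 held Atm-WT samples 1 and 2, slide 2 held Atm-KO sample 1 and Atm-WT sample 3, and slide 3 held Atm-KO samples 2 and 3. Each slide was scanned in 1 run. On every slide the irradiated samples lay at positions 2 and 4 and the nonirradiated ones at 1 and 3, so array position and irradiation coincide and cannot be told apart.

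Promoters of 6 members are printed because their genes follow the 2 patterns that the values below fall into, with Myog, Myh3, Mylpf and Chrna1 high in the number 1 samples and Acta1 and Actc1 high on slide 2. The RefSeq table (build GRCm38.p6) held an entry for 9 of the 10 members, and each entry runs from 250 bases before to 50 after the annotated gene start. Capitals mark the E-box CANNTG, searched on both strands, and the CArG box, the site of serum response factor, which regulates actin genes.
Myog promoter (chr1:134289754-134290053, plus strand): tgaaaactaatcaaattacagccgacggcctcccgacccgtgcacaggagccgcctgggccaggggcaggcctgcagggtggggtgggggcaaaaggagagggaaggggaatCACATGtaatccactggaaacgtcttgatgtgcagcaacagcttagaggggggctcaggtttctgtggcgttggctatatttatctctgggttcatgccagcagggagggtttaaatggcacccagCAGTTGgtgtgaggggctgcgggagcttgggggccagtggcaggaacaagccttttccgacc
Myh3 promoter (chr11:67078050-67078349, plus strand): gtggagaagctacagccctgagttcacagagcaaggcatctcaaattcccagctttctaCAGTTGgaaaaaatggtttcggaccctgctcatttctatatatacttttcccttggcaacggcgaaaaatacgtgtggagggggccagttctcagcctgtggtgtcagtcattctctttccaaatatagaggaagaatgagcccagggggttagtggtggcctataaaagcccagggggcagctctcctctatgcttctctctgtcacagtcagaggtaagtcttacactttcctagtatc
Mylpf promoter (chr7:127211358-127211657, plus strand): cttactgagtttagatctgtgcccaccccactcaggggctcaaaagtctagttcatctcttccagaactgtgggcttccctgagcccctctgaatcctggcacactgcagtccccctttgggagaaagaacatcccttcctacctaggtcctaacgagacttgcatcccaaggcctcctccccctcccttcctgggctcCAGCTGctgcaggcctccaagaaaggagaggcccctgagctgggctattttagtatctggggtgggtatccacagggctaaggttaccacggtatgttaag
Chrna1 promoter (chr2:73580289-73580588, minus strand): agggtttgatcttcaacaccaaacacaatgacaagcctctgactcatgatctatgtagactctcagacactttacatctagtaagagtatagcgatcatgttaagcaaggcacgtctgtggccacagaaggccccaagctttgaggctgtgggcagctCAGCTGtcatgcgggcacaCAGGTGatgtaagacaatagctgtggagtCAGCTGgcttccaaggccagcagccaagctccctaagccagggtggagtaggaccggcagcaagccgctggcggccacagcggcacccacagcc
Acta1 promoter (chr8:123894726-123895025, minus strand): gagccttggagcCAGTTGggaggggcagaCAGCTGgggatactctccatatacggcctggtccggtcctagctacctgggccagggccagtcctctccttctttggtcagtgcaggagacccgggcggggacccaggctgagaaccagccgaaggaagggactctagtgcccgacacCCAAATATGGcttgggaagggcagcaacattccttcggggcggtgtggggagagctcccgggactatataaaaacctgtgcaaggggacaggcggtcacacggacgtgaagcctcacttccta
Actc1 promoter (chr2:114052826-114053125, minus strand): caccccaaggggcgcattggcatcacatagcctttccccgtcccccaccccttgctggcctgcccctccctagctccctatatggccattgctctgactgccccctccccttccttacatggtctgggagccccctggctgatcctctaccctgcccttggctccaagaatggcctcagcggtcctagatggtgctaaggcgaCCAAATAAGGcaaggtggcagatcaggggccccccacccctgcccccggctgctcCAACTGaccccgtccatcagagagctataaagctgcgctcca

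The Myog window held 2 E-boxes, which begin at positions -138 and -12 relative to the gene start. The Chrna1 window held 3 E-boxes, at -92, -73 and -44, of which 2 read CAGCTG and 1 CAGGTG, special cases of CANNTG. Myh3 had 1 E-box at -191, Mylpf 1 at -51 and Actc1 1 at 8, and Acta1 had 2 at -238 and -221. Tnnt1 had 2, the entries of Tnnt2 had 5 and 2, and Myf5 had 0. An E-box is common: 72.3% of 32841 RefSeq windows of this length held at least 1, and 39.6% held 2 or more. CAGCTG occurred in 16.3% and CAGGTG in 20.2% of them. The CArG box, searched with no mismatch allowed, was rarer, at 1.63% of all windows, and among the members only Actc1 (at -47) and Acta1 (at -73) had one. These matches describe the sequence and are not evidence of binding.

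**Figure D1:**
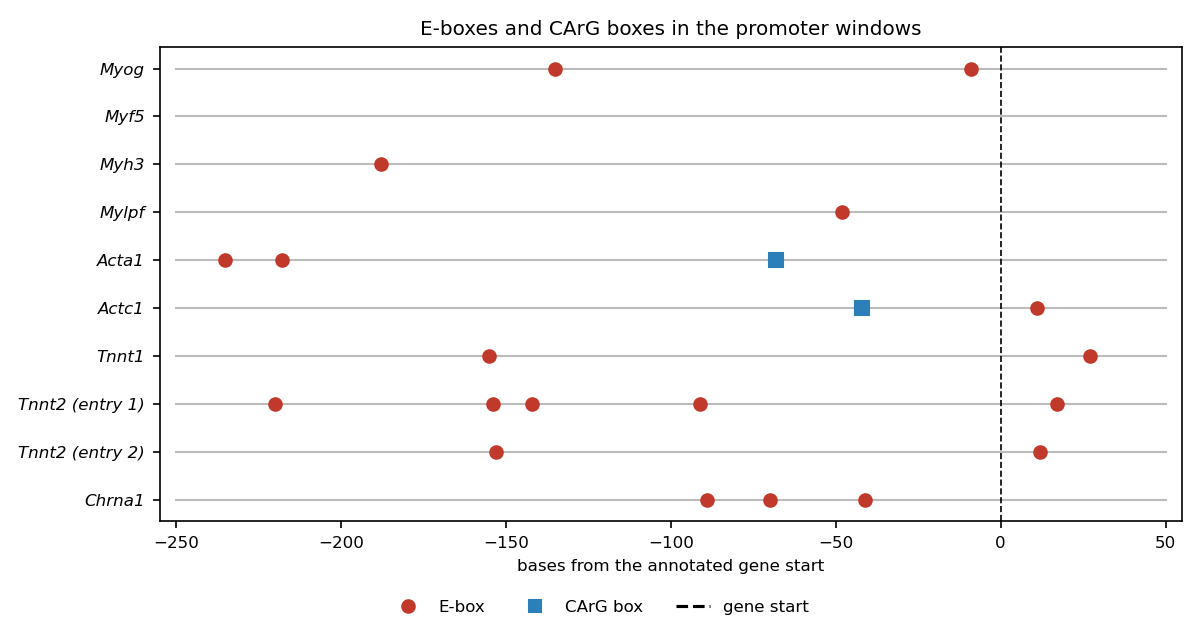
Positions of E-boxes (circles) and CArG boxes (squares) in the promoter windows of 9 members, with the distance from the annotated gene start in bases on the horizontal axis and the start as a dashed line. Each line is 1 RefSeq entry, with 2 for Tnnt2, and the CArG boxes lie at -47 in Actc1 and -73 in Acta1.

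Among the regulators, Myog differed most by sample number. It stood at -1.25, -4.21 and -5.61 in samples 1, 2 and 3 of irradiated Atm-KO cells and at -1.46, -6.61 and -7.32 in nonirradiated Atm-KO cells. In Atm-WT cells the levels were -2.25, -7.51 and -6.83 with irradiation and -2.57, -6.86 and -6.45 without it. Sample 1 was the highest of the 3 in each group, and the 4 number 1 samples lay above the other 8. Outside the number 1 samples, Myog was well above background only in irradiated Atm-KO samples 2 and 3, which lay above samples 2 and 3 of the other groups.

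Myod1, measured by 10 spots per array, was dim throughout. Its level was -4.41, -5.12 and -6.22 in irradiated Atm-KO and -4.60, -6.35 and -5.61 in nonirradiated Atm-KO cells. In Atm-WT cells it was -5.12, -5.96 and -4.42 with irradiation and -4.25, -5.52 and -4.82 without it. It was well above background on 10 of 12 arrays, with irradiated Atm-KO sample 3 and nonirradiated Atm-KO sample 2 as the exceptions. Sample 1 was the highest in 3 of the 4 groups. Myf5, at -8.41 to -7.25, was well above background on 0 of 12 arrays and was not tested. Of other genes around these factors, Myf6, the fourth member of the family, was above background on 0 arrays, Pax7, a marker of muscle stem cells, on 4, and Pax3, a regulator of muscle progenitors, on 8.

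Myh3, the embryonic myosin heavy chain, had the widest range of the members. Its brighter probe stood at 0.47, -5.09 and -5.09 in irradiated Atm-KO cells and at -0.21, -7.85 and -7.29 in nonirradiated Atm-KO cells. The levels were -0.51, -7.84 and -5.64 in irradiated Atm-WT cells and -1.52, -7.43 and -7.59 in nonirradiated Atm-WT cells. The number 1 samples were far above all others, and, as for Myog, irradiated Atm-KO samples 2 and 3 were the only others well above background. By the second Myh3 probe, at -0.42, -4.93 and -4.79 in irradiated Atm-KO cells, the number 1 samples were again above all others. Irradiated Atm-WT sample 3 was also above background by this probe, at -4.24, and higher than irradiated Atm-KO samples 2 and 3.

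Mylpf, the fast regulatory light chain, was measured on all 12 arrays. It stood at -0.11, -2.82 and -3.06 in irradiated Atm-KO, 0.50, -3.25 and -3.15 in nonirradiated Atm-KO, -0.94, -2.70 and -2.96 in irradiated Atm-WT and -1.51, -2.51 and -2.69 in nonirradiated Atm-WT cells. The 4 number 1 samples again lay above the other 8, which spanned less than 1 log2 unit.

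Tnnt1, the slow troponin T, showed the same split on a smaller scale. It stood at -0.12, -1.45 and -1.37 in irradiated Atm-KO, 0.26, -0.83 and -0.73 in nonirradiated Atm-KO, -0.61, -1.47 and -1.44 in irradiated Atm-WT and -0.19, -0.72 and -0.80 in nonirradiated Atm-WT cells. Its number 1 samples were above all others.

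Tnnt2, the cardiac troponin T, varied with number, and with slide or genotype. It stood at 0.86, -0.22 and -0.34 in irradiated Atm-KO, 0.42, -0.39 and -0.58 in nonirradiated Atm-KO, 2.39, 0.88 and 0.18 in irradiated Atm-WT and 1.93, 1.03 and 0.44 in nonirradiated Atm-WT cells. In each group sample 1 was the highest and sample 3 the lowest. All 4 arrays of slide 1 lay above the other 8 and all 4 of slide 3 below the other 8, which 0.298% and 3.08% of all features did. Slide 1 holds only Atm-WT samples and slide 3 only Atm-KO samples, so slide and genotype cannot be told apart there.

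The alpha-actins behaved differently from the rest. Actc1 stood at 4.93, 3.60 and 2.81 in irradiated Atm-KO, 5.54, 3.25 and 2.83 in nonirradiated Atm-KO, 3.41, 4.52 and 5.18 in irradiated Atm-WT and 3.26, 4.14 and 5.12 in nonirradiated Atm-WT cells. Sample 1 was thus the highest in Atm-KO and the lowest in Atm-WT cells. Acta1 had the same order, at 2.54, 0.82 and 0.23 in irradiated Atm-KO, 3.05, 0.95 and 0.21 in nonirradiated Atm-KO, 0.81, 1.80 and 2.54 in irradiated Atm-WT and 0.60, 1.35 and 2.56 in nonirradiated Atm-WT cells. For Actc1, and for Acta1, the 4 arrays of slide 2 lay above the other 8, as they did for 1.45% of all features. Slide 2 holds Atm-KO sample 1 and Atm-WT sample 3, so the slide and these samples cannot be told apart.

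Chrna1, the receptor subunit, differed by number and by genotype. It stood at -1.07, -2.43 and -3.08 in irradiated Atm-KO and -1.37, -2.65 and -3.43 in nonirradiated Atm-KO cells. In Atm-WT cells it stood at -2.63, -4.75 and -5.20 with irradiation and at -3.43, -4.67 and -5.28 without it, the last of these not well above background. Within each group sample 1 was again the highest and sample 3 the lowest, and at each number both Atm-KO samples lay above both Atm-WT samples.

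**Figure D2:**
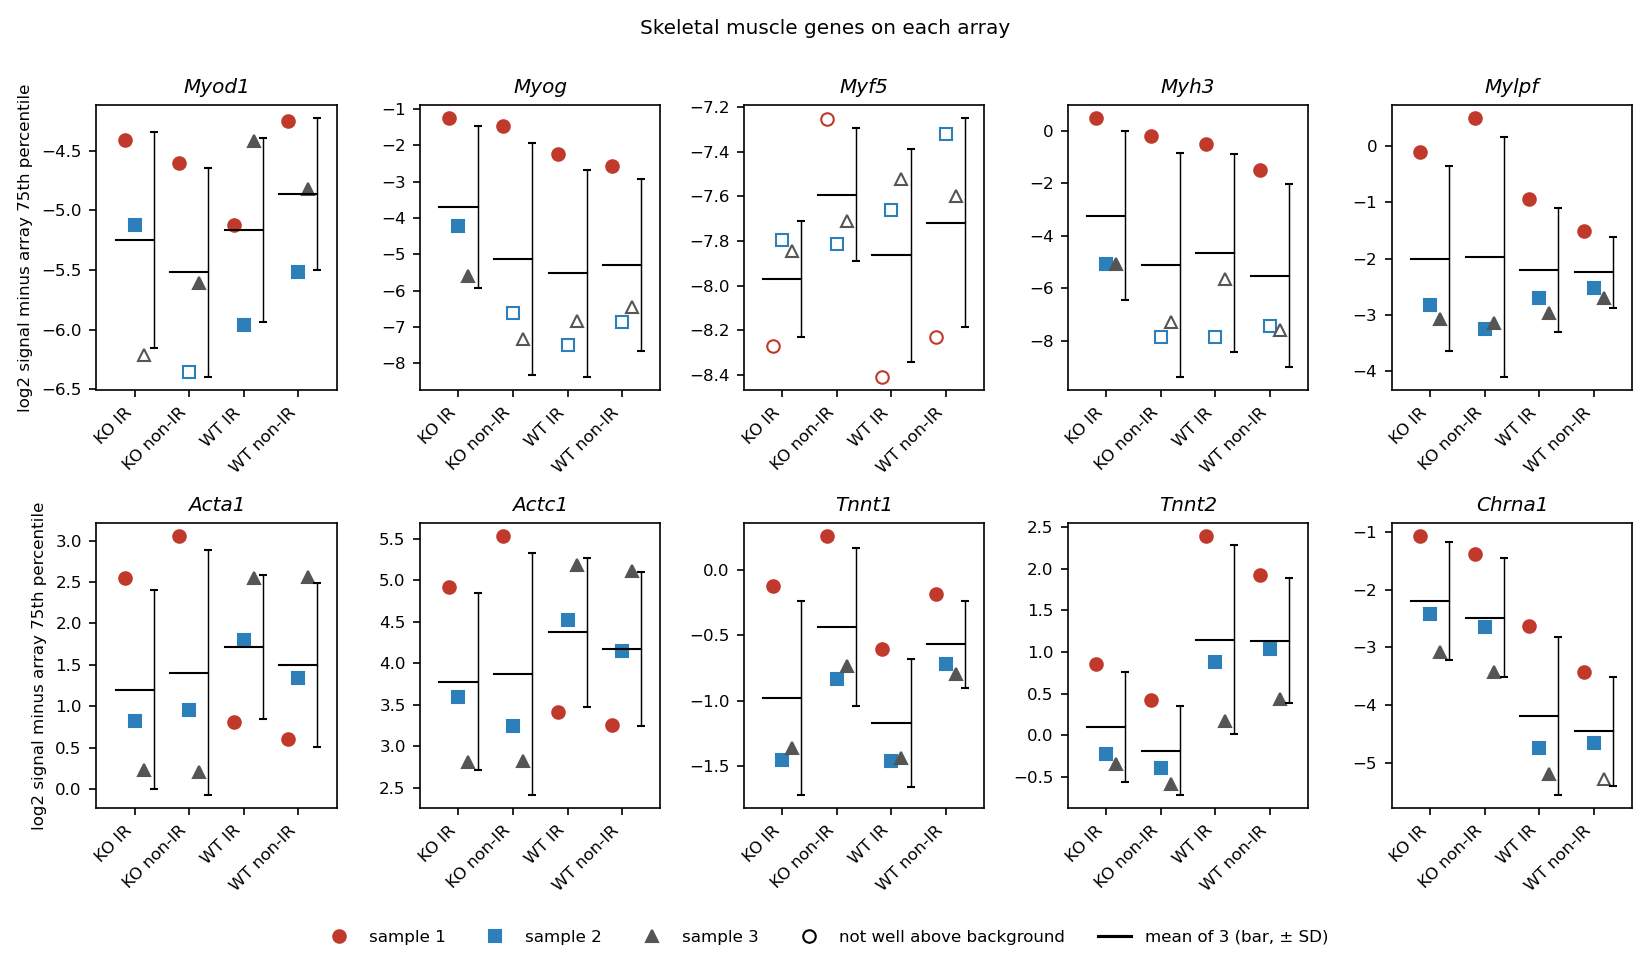
Level of each member on the 12 arrays, as log2 signal minus the 75th percentile of the array, with the groups on the horizontal axis and the sample number as symbol. Open symbols were not well above background, the horizontal line is the mean of 3 and the bar its SD. The number 1 samples are the highest in each group for Myog, Myh3, Mylpf, Tnnt1, Tnnt2 and Chrna1, while Acta1 and Actc1 are high in Atm-KO sample 1 and Atm-WT sample 3.

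The members were chosen from these values, so the counts by number are a description. The mean over the 4 groups of sample 1 minus the mean of samples 2 and 3 was 6.28 for Myh3, 4.54 for Myog, 2.37 for Mylpf, 1.81 for Chrna1, 1.28 for Tnnt2, 0.94 for Tnnt1, 0.91 for Myod1, 0.44 for Acta1 and 0.35 for Actc1 (log2). With the dim arrays set no lower than the weakest signal above background, Myh3 was 43.5-fold and Myog 16.1-fold higher in the number 1 samples. These are not lower bounds, since the true level of a dim probe may lie above that signal. A normexp background correction gave smaller number differences, 2.41 for Myh3, 1.19 for Myog and 0.56 for Chrna1. They were 2.68, 1.39 and 0.76 when extreme local backgrounds were limited, a setting added after the data were seen. Both settings add an offset of 50 to the signal, which by itself shrinks log2 differences of dim probes. In a model of group and sample number, 6 of 9 tested members passed the F test at an adjusted p of 0.05, with 28.5% of all 18438 tested features called in this comparison and 13% called with number 1 higher. With normexp 1 member (Tnnt2) and 0.488% of features were called, and with local backgrounds limited 6 members and 26.6% of features. Mylpf lost its call without irradiated Atm-KO sample 1, where 3.49% of features were called, and with slide as a further term, where 10.7% of features were called, Tnnt1 lost its call and Acta1 was called at -0.53. The median of the members was 1.28, against -0.17 over all features. All 6 had their highest value in sample 1 of every group, which 12.4% of features had, and Myog, Tnnt1, Myh3 and Mylpf had all 4 number 1 samples above the other 8, which 4% had. Myog and Myh3 passed the filter on dim probes only through irradiated Atm-KO cells, the only group with 3 of 3 arrays above background.

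Across the 12 arrays, which share slides and partners, Myog and Myh3 had a Pearson's r of 0.970, Mylpf and Myh3 0.897, and Acta1 and Actc1 0.989. Actc1 had an r of 0.183 with Myh3 and -0.11 with Chrna1. Chrna1 had an r of 0.776 with Myog and -0.0032 with Tnnt2.

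Irradiation was compared within each genotype, and 0 of 9 tested members passed the test in either. In Atm-KO cells 0.00542% of features were called, and in Atm-WT cells 0.445%. In Atm-KO cells Myh3 differed by 1.88 ± 2.46 and Myog by 1.44 ± 1.80 (log2, irradiated minus nonirradiated, SE, n = 3 each, limma adjusted p = 0.905 and 0.901). For the difference between the genotypes' responses 0 of 9 members were called, against 0.00542% of features. No member had an unadjusted p under 0.05 in these 3 comparisons, against 7.93% of features in Atm-KO cells, 6.46% in Atm-WT cells and 0.9% for the difference.

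Irradiated and nonirradiated samples of the same number varied together, so differences were also taken within the 6 pairs. In Atm-KO cells, however, samples of number 2 (r = 0.269) did so less than unlike numbers 2 and 3 (0.284 and 0.335). Tnnt1 lay lower in the irradiated sample of each pair, by -0.38, -0.62 and -0.63 in Atm-KO pairs 1, 2 and 3 and -0.42, -0.74 and -0.64 in Atm-WT pairs. A lower value in all 6 pairs was found for 14.3% of features. Myog differed by 0.21, 2.40 and 1.72 in the Atm-KO pairs, against 0.32, -0.65 and -0.38 in the Atm-WT pairs. Its 3 Atm-KO pairs were thus higher with irradiation, and 1 of 3 Atm-WT pairs was. Myh3 differed by 0.69, 2.77 and 2.20 in the Atm-KO pairs and by 1.01, -0.41 and 1.94 in the Atm-WT pairs. For both genes, the nonirradiated arrays of Atm-KO pairs 2 and 3 were not well above background, so these differences rest on dim signal. With the pair as a block, 2.01% of features were called in Atm-KO and 2.27% in Atm-WT cells, and 0 members. At an unadjusted p under 0.05 the block fit held 3 members in Atm-KO cells (Myog, Tnnt1 and Myh3; 20.6% of features) and 1 in Atm-WT cells (Tnnt1; 15.4%). The limma adjusted p was 0.0785 for Myh3, 0.0872 for Myog and 0.139 for Tnnt1 in Atm-KO cells and 0.134 for Tnnt1 in Atm-WT cells. The blocked difference between the genotypes' responses was 1.67 ± 0.525 for Myog (limma adjusted p = 0.977), with 0 members and 0.0217% of features called, and with Myog alone of the members, and 3.31% of features, at an unadjusted p under 0.05. Some calls appeared when samples were left out of the block fit, in settings added after the data were seen. In Atm-KO cells, Myh3 was called without number 2 of every group (limma adjusted p = 0.00502, 4.44% of features called) and without Atm-WT sample 2 (limma adjusted p = 0.0392, 1.52% called). Myog was called there without Atm-KO sample 1 (limma adjusted p = 0.0455, 0.906% called). In Atm-WT cells, Myh3 was called without number 2 of every group, with 2.76% of features called, and Tnnt1 without Atm-KO sample 1 (limma adjusted p = 0.0428, 5.46% called). Myog and Myh3 were tested at all only because irradiated Atm-KO cells are high, so their p-values for Atm-KO cells and for the difference between genotypes support nothing.

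**Figure D3:**
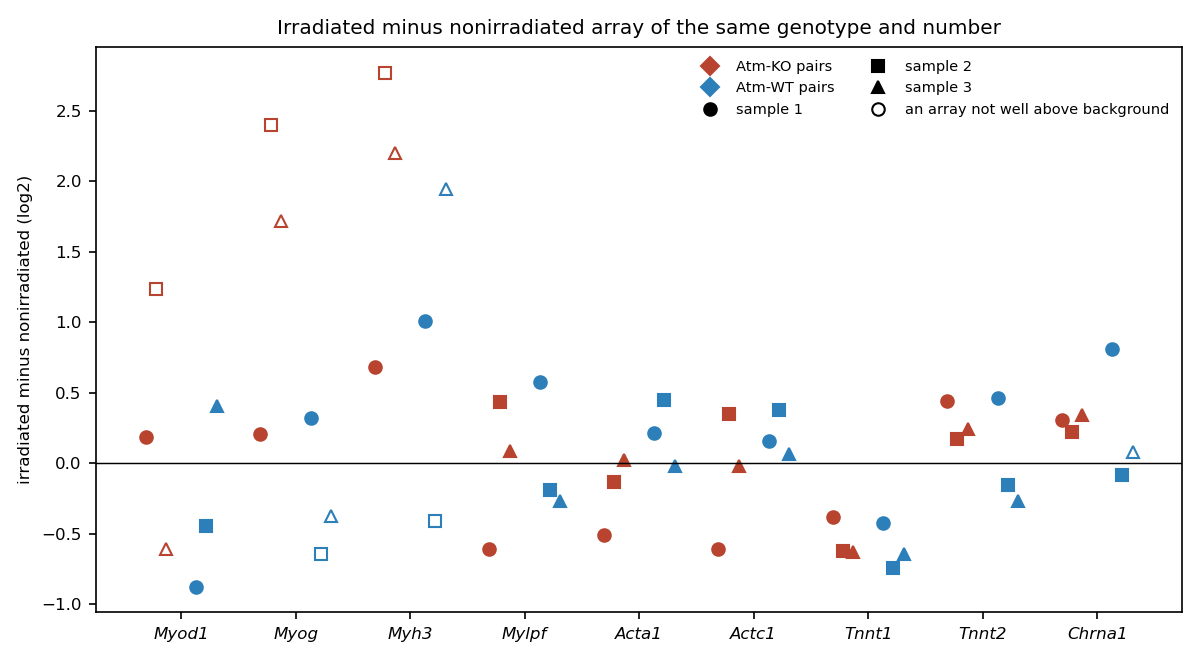
Irradiated minus nonirradiated level (log2) of the tested members in the 3 Atm-KO pairs and the 3 Atm-WT pairs, with the sample number as symbol. Open symbols mark pairs with an array not well above background. Tnnt1 is below 0 in all 6 pairs, and the Myog and Myh3 differences above 1.5 are open symbols.

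Between genotypes, 0 of 9 tested members passed the test with irradiation, where 0.206% of features were called, or without it, where 0.862% were. The same test did not call Atm itself, which differed by -2.52 with and -1.73 without irradiation (log2, limma adjusted p = 0.225 and 0.475). Chrna1 averaged -2.19 ± 1.03 in irradiated Atm-KO cells and -4.19 ± 1.37 in irradiated Atm-WT cells (SD, n = 3 each). Without irradiation it averaged -2.48 ± 1.04 in Atm-KO and -4.46 ± 0.939 in Atm-WT cells. The differences, 1.998 ± 0.758 and 1.98 ± 0.758 (log2, SE), were close in size, and their limma adjusted p was 0.685 and 0.481. Within numbers 1, 2 and 3 the difference was 1.56, 2.32 and 2.11 with irradiation and 2.06, 2.02 and 1.85 without it, so the spread within a group lay mostly between the numbers. With irradiation, same-numbered samples of both genotypes varied together, though number 3 (r = 0.218) less than unlike numbers 2 and 3 (0.342 and 0.387). There, the fit with replicate number as a block called Chrna1 alone of the members, with 0.759% of features called (limma adjusted p = 0.00287, SE 0.201). The genes were chosen with these values known, so this p is a description. No single slide holds Chrna1 at the same number in both genotypes: on slide 2, which alone holds both genotypes, Atm-KO sample 1 is set against Atm-WT sample 3. With slide as a fixed block the differences were 4.03 with and 4.01 without irradiation (limma adjusted p = 0.171 and 0.0887). Averaged with the dimmer second probe they were 1.44 and 1.02, and with normexp 0.90 and 0.16. These settings were added after the data were seen: with local backgrounds limited in normexp the differences were 0.87 and 0.76, and without number 1 of every group 2.22 and 1.94 (limma adjusted p = 0.0225 and 0.0260), where 5.66% and 8.6% of features were called.

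Tnnt2 ran the other way, lower in Atm-KO cells. It averaged 0.0986 ± 0.662 in irradiated Atm-KO and 1.15 ± 1.13 in irradiated Atm-WT cells, and -0.19 ± 0.534 in nonirradiated Atm-KO and 1.13 ± 0.751 in nonirradiated Atm-WT cells (SD, n = 3 each). The differences were -1.05 and -1.32 (limma adjusted p = 0.9999 and 0.594). The groups overlapped with irradiation, and without it the highest Atm-KO sample, at 0.42, was next to the lowest Atm-WT sample, at 0.44. On slide 2, which sets Atm-KO sample 1 against Atm-WT sample 3, the direction with irradiation was the opposite, at 0.68. At numbers 1, 2 and 3 the difference was -1.53, -1.10 and -0.52 with irradiation and -1.51, -1.43 and -1.02 without it. Samples of the same number lay on different slides in Atm-KO and Atm-WT cells, so slide and genotype cannot be told apart in these differences. Without irradiation, Tnnt2 and Chrna1 had unadjusted p under 0.05, as 7.54% of features did, and with irradiation Chrna1 did, as 5.23% did. Myod1, Mylpf, Tnnt1, Acta1 and Actc1 had differences of -0.66 to 0.27 between genotypes. Myog and Myh3 differed by 1.84 and 1.43 with irradiation and by 0.16 and 0.39 without it, each with 6 of 12 arrays above background. In the block fit of irradiated cells 4 members (Myog, Tnnt2, Myh3 and Chrna1) had an unadjusted p under 0.05, as 8.52% of features did, and Myog and Myh3 again entered through the irradiated Atm-KO group alone.

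For Acta1 and Actc1 the Atm-KO minus Atm-WT difference changed sign with number, between samples that lay on different slides. For Actc1 the Atm-KO minus Atm-WT difference was 1.51, -0.93 and -2.37 with irradiation and 2.28, -0.90 and -2.29 without it, at numbers 1, 2 and 3. The pooled differences, -0.60 and -0.30, average over these. At number 1 the Atm-KO samples were on slide 2, and at number 3 the Atm-WT samples were, so slide and genotype cannot be told apart here. Within slide 2, Actc1 stood at 4.93 in irradiated and 5.54 in nonirradiated Atm-KO sample 1. In Atm-WT sample 3 it stood at 5.18 and 5.12.

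Among other cell types, macrophage genes differed most often by genotype: 10 of 11 tested macrophage genes were called lower in nonirradiated Atm-KO than in nonirradiated Atm-WT cells and 4 in the irradiated comparison, with medians of -2.59 and -2.14 (log2). The summed level of the 14 macrophage genes was 0.664 to 1.17 in Atm-KO and 3.34 to 8.22 in Atm-WT cells. On Atm-KO arrays 6 to 11 of the 14 were above background, against 11 to 14 on Atm-WT arrays. Some of the tested macrophage genes thus entered through Atm-WT cells alone, where they are high, so their calls are a description. The sums of 2 other lists were also separated by genotype: the 8 adipocyte genes reached 8.36 to 14.5 in Atm-KO and 18.2 to 29.6 in Atm-WT cells, and the 12 cartilage and bone genes 90.3 to 284 in Atm-KO and 44.7 to 84.0 in Atm-WT cells. Over all features, 0.472% were called lower and 0.39% higher in Atm-KO cells without irradiation, and 0.146% and 0.0597% with it. Of 6 tested adipocyte genes 1 was called lower without irradiation and 0 with it, and of 9 tested cartilage and bone genes 1 was called higher in each. Their part in the Chrna1 and Tnnt2 differences was not tested.

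The number 1 samples were also compared in other muscle genes. These came from 7 lists of structural, regulatory and synaptic genes chosen with earlier results of these data known, and they differed in both directions. Of 98 tested genes, 19 were called higher and 13 lower in number 1, with a median difference of 0.052 against -0.17 over all features, of which 13% were called higher and 15.5% lower. Thick filament and titin genes had 6 of 17 called higher and 0 lower, with a median of 0.67. Myl1, an alkali light chain of fast myosin, differed by 6.02, Mybph, a myosin-binding protein, by 2.34, and Myh7, the slow myosin heavy chain, by 2.29. The adult fast heavy chain gene Myh4 differed by 1.81 and was called, while Myh8, the perinatal form, differed by 0.83 and Myh2 by -1.06 and were not. Thin filament and Z-disc genes had 6 of 19 called higher and 1 lower, with a median of 0.46. Tnnc2, the fast troponin C, differed by 3.34, Tnni1, the slow troponin I, by 2.30 and Tcap, a titin cap protein, by 1.23. Genes of contraction coupling had 3 of 13 called higher and 2 lower: the calcium-binding calsequestrins Casq2 and Casq1 differed by 2.26 and 1.34 and the calcium channel Cacna1s by 2.01, against -0.76 for Stac3, which couples that channel to release. Mb, which encodes myoglobin, differed by 3.23 among muscle metabolism and membrane genes, where 2 of 16 were called higher and 5 lower.

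Not every muscle list moved this way. The acetylcholine receptor and synapse list, other than Chrna1, had 0 of 7 called, with a median of -0.41, and Chrnd and Chrne, the delta and epsilon subunits, differed by -0.41 and -0.53. Among genes of myoblast fusion and surface, Cdh15, the muscle cadherin, differed by 2.01 and was called, 1 was called lower, and Mymk, the fusion factor myomaker, differed by -0.052. Of regulators and progenitor genes 1 of 14 was called higher and 4 lower. The lower ones included Id1 and Id3, inhibitors that sequester the dimer partners of myogenic factors, at -1.40 and -1.21, and the higher one was Six4, at 0.87. Ckm, the muscle creatine kinase, was above background on 0 of 12 arrays.

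**Figure D4:**
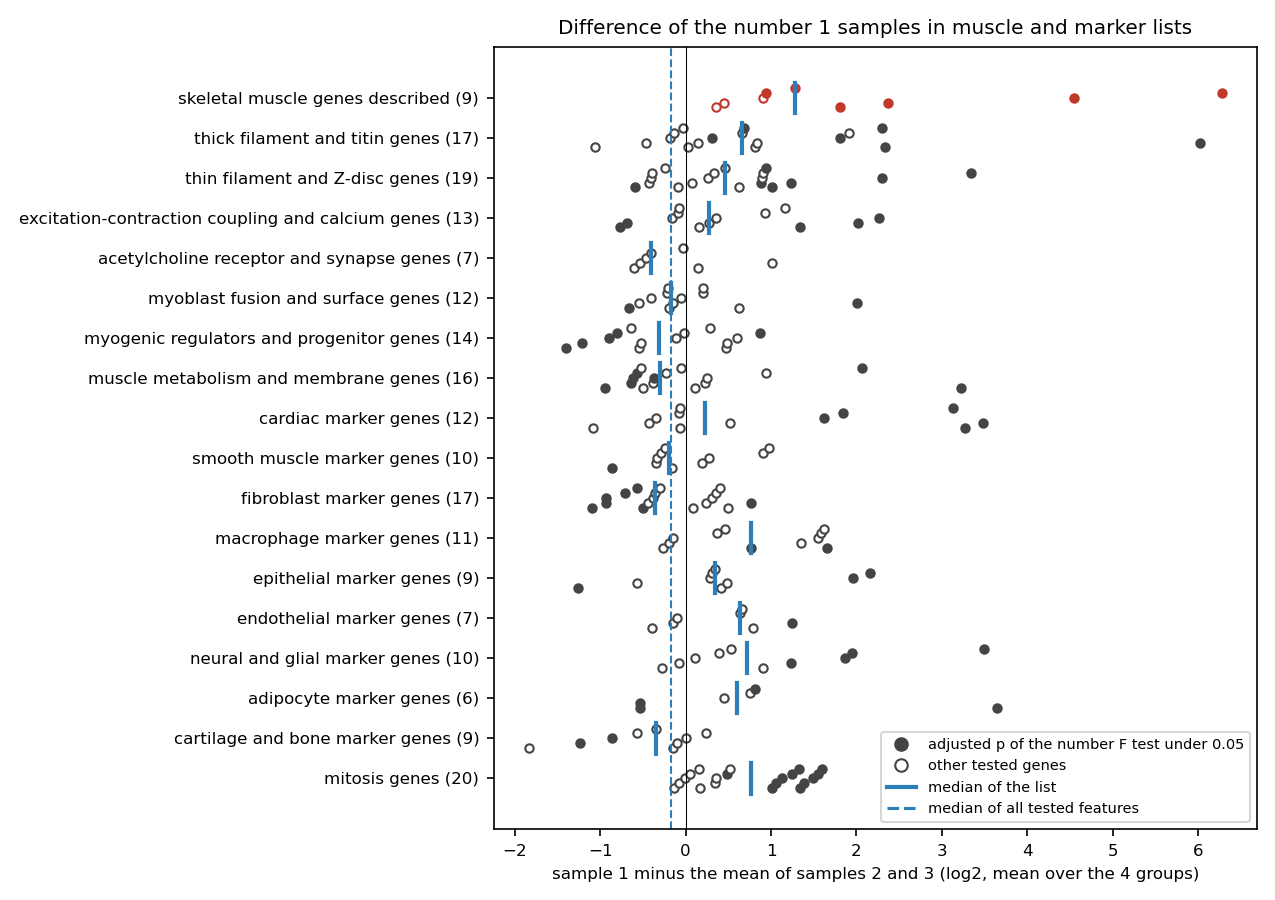
Sample 1 minus the mean of samples 2 and 3, averaged over the 4 groups (log2, horizontal axis), for each tested gene of the muscle and marker lists, with the number of genes in brackets. Filled points had an adjusted p under 0.05 in the F test for sample number, the solid bar is the median of a list and the dashed line the median of all features, -0.17. The genes described here, at the top, have a median of 1.28, and Myl1 of the thick filament list stands at 6.02.

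Genes of other cell types were also compared by number. For all the lists below, the counts stand against 13% of all features called higher and 15.5% called lower. Cardiac marker genes had 5 of 12 called higher, with Myh6, the atrial myosin heavy chain, at 3.48, Myl7, the atrial light chain, at 3.27 and Nppa, the atrial natriuretic peptide, at 3.14, while Nkx2-5, an early cardiac transcription factor, was not called. The summed level of the 16 cardiac genes on a linear scale was 6.35 to 9.82 in the number 1 samples, against 2.76 to 6.37 in the others. Mitosis genes had 11 of 20 called higher and 0 lower, with a median of 0.76. Their summed level, 57.0 to 204 in number 1 and 56.9 to 119 in the others, overlapped.

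Epithelial genes had 2 of 9 called higher, Krt18 at 2.16 and Krt8 at 1.96, simple-epithelium keratins, and 1 lower, Cldn7. Epcam, which defines epithelial cells, was above background on 6 arrays and was not called. The summed level of the 12 epithelial genes was 2.55 to 5.24 in number 1 and 1.38 to 1.81 in the others. Neural and glial genes had 4 of 10 called higher, led by Gfap, an astrocyte filament, at 3.49, with sums of 7.72 to 15.2 in number 1 and 5.29 to 7.87 in the others.

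Fibroblast genes had 1 of 17 called higher and 6 lower, among them Fn1 (fibronectin) and Pdgfrb (a growth factor receptor), at -0.93 and -0.94, and their summed level was 1581 to 2301 in number 1 and 2251 to 2925 in the others. Macrophage genes had 2 of 11 called higher and endothelial genes 1 of 7, near the 13% of all features. Ptprc and Pecam1, which define these cells, were above background on 2 and 1 arrays. Adipocyte genes had 2 of 6 called higher and 2 lower, smooth muscle genes 0 of 10 higher and 1 lower, and cartilage and bone genes 0 of 9 higher and 2 lower. The part of these genes' cells in the muscle gene values was not tested, and in these bulk samples fewer cells of a type and less RNA per cell cannot be told apart.

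Named genes whose pattern over the 12 arrays was most like the mean of the 9 tested members were Tnni1 (Pearson's r = 0.966), Krt18 (0.957), Afap1l1 (0.956), Krt8 (0.953), Tnnc2 (0.952), Cd24a (0.949), Pla2g7 (0.948), Wnt10a (0.943), Nppa (0.941) and Gap43 (0.939). Only Tnni1 and Tnnc2 among these were in the muscle lists. The members were centred but not scaled, so Myh3 and Myog, with the widest ranges, weigh most in this mean. Tnni1 stood at -2.14 to -0.84 in the number 1 samples and -4.19 to -3.43 in the others, and Krt18 at 0.024 to 1.96 and -1.99 to -0.46. The least like were Man1c1 (-0.97), Letm2 (-0.96) and Lgr5 (-0.96), and Lgr5 stood at 1.24 to 2.28 in number 1 and 2.30 to 3.40 in the others. For the mean of Acta1 and Actc1, a profile added after their pattern was seen, the most like gene was Actg2, the enteric smooth muscle actin, with an r of 0.953, ahead of Coro1c (0.946) and Pabpc2 (0.941). These are correlations across arrays that share slides and partners.

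**Figure D5:**
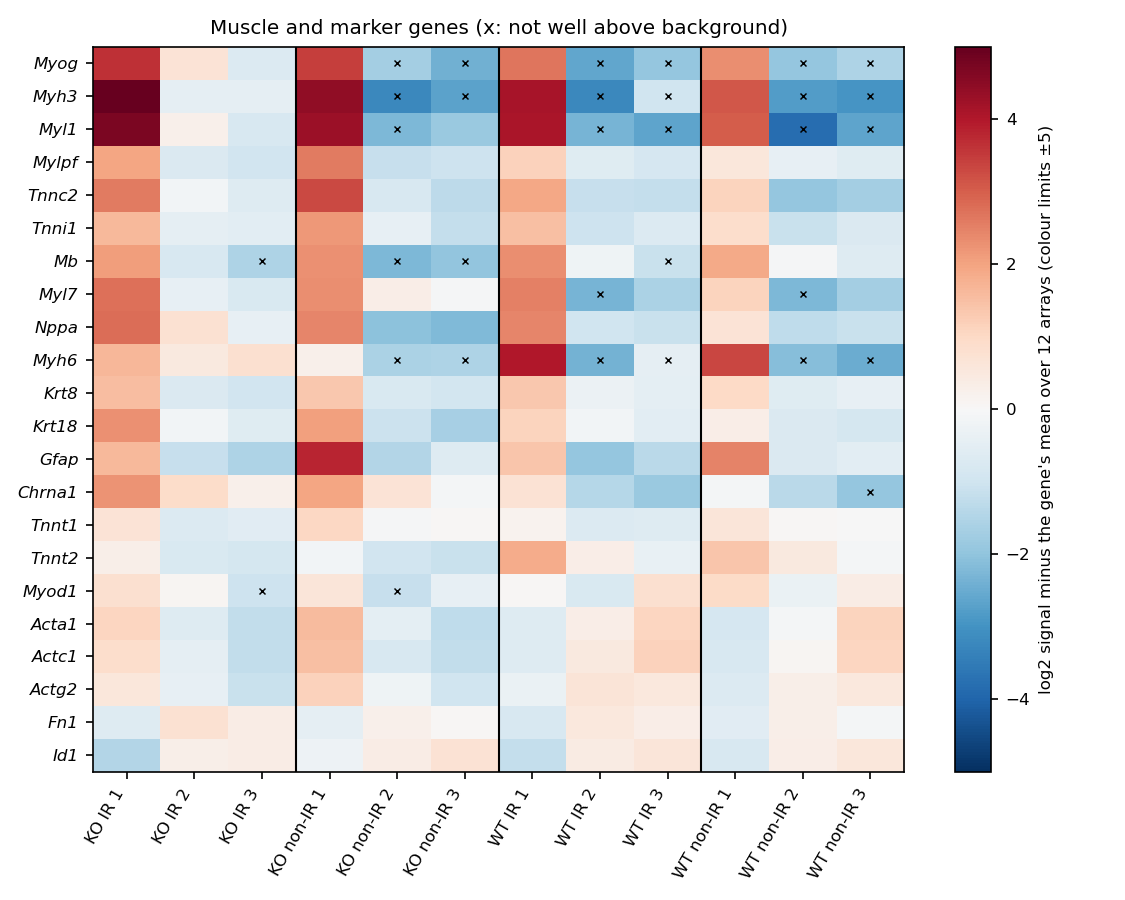
Level of members, other muscle genes and marker genes on each array (columns, by group and sample number) as log2 signal minus the mean of the gene over the 12 arrays, with colour limits of ±5. Crosses mark values not well above background. The number 1 columns are red for Myog, Myh3, Myl1, Tnnc2, Tnni1, Krt8 and Krt18 in each group, and Acta1, Actc1 and Actg2 are red in Atm-KO sample 1 and Atm-WT sample 3.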

How the data were processed

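RNA from 12 mouse embryonic fibroblast samples was hybridised to single-colour Agilent arrays. Per the file headers, the authors deposited spot intensity from Feature Extraction 10.7.1.1 (the submitters' processing notes name 11.0), and the scanner values were log2-transformed here. A second deposited file holds the authors' own log2 matrix, which follows the scanner values minus each array's 75th percentile and each probe's median (r at least 0.9975 over 41174 probes), its direction being that of the signal.

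Here, control spots were left out, log2 processed signal minus each array's 75th percentile was taken, and spots of a probe were averaged. Flagged outlier spots were left out of this average unless all spots of the probe were flagged, so a flagged probe with 1 spot kept it. Probes were named by matching accessions to a RefSeq table (GRCm38.p6): 25097 of 41174 were named. The brightest probe stood for a gene. A feature was tested if well above background on 3 of 3 arrays of a group, which left 18438. A group-means model was fitted with limma 3.58.1 (R 4.3.3, with version 1.17.8 of data.table), with Benjamini-Hochberg adjustment at 0.05 and 8 residual degrees of freedom, and a second model of group and sample number gave an F test. The fit was tested on simulated data drawn independently for each array, which does not cover arrays that vary together by slide or number. Same-numbered samples' deviations from group means correlated at 0.269 to 0.510 for irradiation in Atm-KO cells, 0.481 to 0.852 in Atm-WT cells and 0.218 to 0.628 between irradiated genotypes, so the numbers were taken as pairs there. Between nonirradiated genotypes they correlated at -0.22 to 0.179, and they were not. Samples of unlike numbers 2 and 3 correlated at 0.284 and 0.335 for irradiation in Atm-KO cells, above the 0.269 of number 2. Between irradiated genotypes these unlike numbers correlated at 0.342 and 0.387, above the 0.218 of number 3. The pairing of numbers 2 and 3 is thus not settled in these comparisons.

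The members, the lists and the likeness measure were chosen with earlier results of these data known. Named genes were the members, up to 3 per muscle list with the largest statistic, the 10 most and 3 least like the members' mean, and the leading and defining genes of marker lists; Myh8, Myh2, Chrnd, Chrne, Mymk, Six4, Ckm, Pax7, Pax3, Myf6 and the second profile's genes were added after values were seen. Normexp used the median spot signal and an offset of 50, which by itself shrinks log2 differences of dim probes. The number of arrays limits the precision. Alternatives were other background correction, scaling, filters and probes, the authors' matrix, slide, replicate number and each array left out. The normexp fit with local backgrounds limited, and the fits without all samples of 1 number or without a pair, were added after the data were seen.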

Additional observations from a re-analysis of the deposited data

Results flagged for a closer look

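The second, dimmer probe of Chrna1, which entered only the alternative that averages a gene's probes, was well above background on 1 array, irradiated Atm-KO sample 1, at -5.13 on the log2 scale. The nonirradiated Atm-KO samples stood at -7.69 to -7.25 by this probe, not well above background. The brighter Chrna1 probe was also highest in irradiated Atm-KO sample 1, at -1.07. It stands out as a signal outside the probes that stand for the genes.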

How the results depend on the processing

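Between groups, the count of members called stayed at 0 under every scaling, filter, probe rule, slide fit and single array left out (0 to 0 in all 5 comparisons). With the replicate block, 2 members (Chrna1 and Tnnt2, adjusted p = 0.00112 and 0.0210) were called between nonirradiated genotypes, where the numbers do not pair the samples and 1.71% of features were called, and 1 (Chrna1) between irradiated ones. These alternatives were chosen after seeing the data: without replicate 1 of every group, Chrna1 was called in both (1 and 1; 5.66% of features with and 8.6% without irradiation), and with the block also, 1 with (6.72%) and 2 without irradiation (10.4%) were. For irradiation, the block called 1 member, Myh3, in each genotype without replicate 2 of every group (4.44% of features in Atm-KO and 2.76% in Atm-WT cells). It called 1 in Atm-KO cells (Myh3) without Atm-WT replicate 2 (1.52%), and without Atm-KO replicate 1 it called 1 in Atm-KO (Myog, 0.906%) and 1 in Atm-WT cells (Tnnt1, 5.46%). Myh3 and Myog were tested only because irradiated Atm-KO cells are high, so their calls in Atm-KO cells support nothing. The difference by number was called for 6 members, 5 to 7 with 1 array left out, 6 by quantile scaling or the authors' matrix, and 1 (Tnnt2, with 0.488% of features) by normexp.

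In that normexp fit 1 spot of nonirradiated Atm-WT sample 3 lay at -23279.5 relative to its local background and the fitted background mean was -382 there and -88.4 on irradiated Atm-KO sample 1, against -1.95 to 6.74 on the others. With local backgrounds limited to 50 above the spot, 6 members were called. Myod1 reversed under both, at -0.12 and -0.072. Without irradiated Atm-KO replicate 1, Mylpf had an adjusted p of 0.0529.

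The Tnnt2 genotype difference reversed with slide as a fixed block (0.47 with and 0.20 without irradiation) and, with irradiation, within slide 2 (0.68). Only slide 2 holds both genotypes, and there sample 1 of Atm-KO is set against sample 3 of Atm-WT cells. Between samples of the same number Tnnt2 was lower in Atm-KO cells throughout, but these samples lay on different slides, so slide and genotype cannot be told apart there. The number difference of Actc1 and Acta1 reversed with slide as a further term (-0.70 and -0.53), without nonirradiated Atm-KO replicate 1 (-0.36 and -0.23) and without irradiated Atm-KO replicate 1 (-0.11 and -0.080). Their ranges over single arrays left out were -0.36 to 0.95 and -0.23 to 1.05. The cause was not tested. With normexp the Chrna1 genotype difference was 0.16 without irradiation, and over all alternatives it was up to 4.01. Dim signal limits Myog, Myh3, Myod1 and Chrna1.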
